A study of Rattus norvegicus with 22 samples.

Results

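Expression of 9 neurotrophic factors and receptors was followed in the rat hippocampus after traumatic brain injury (TBI). The set was a list of gene symbols looked up in the deposited count table by symbol, and it was drawn up with earlier results of these data known. It held the neurotrophins Bdnf and Ntf3, their receptors Ntrk2, Ntrk3 and Ngfr, the glial factor Gdnf, insulin-like growth factor 1 (Igf1) with its receptor Igf1r, and fibroblast growth factor 2 (Fgf2). All 9 were among the 17172 genes of the table. 8 of the 9 passed the filter on low counts and were tested, as were 12875 genes in all, and Gdnf was not tested because its counts were too low.

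Neurotrophic factors are secreted proteins that keep neurons alive and shape their synapses. The neurotrophins BDNF (Bdnf) and neurotrophin-3 (Ntf3) bind the receptor tyrosine kinases TrkB (Ntrk2) and TrkC (Ntrk3), respectively, and all neurotrophins, above all in their uncleaved pro-forms, also bind the p75 receptor (Ngfr). In the hippocampus Bdnf is made by excitatory neurons and varies with neuronal activity, Ntf3 is known from the granule cells of the dentate gyrus, and Igf1 and Fgf2 can also be made by glia.

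Adult male Sprague-Dawley rats received a moderate lateral fluid percussion injury over the right hemisphere, or, as sham controls, anesthesia and craniectomy with no percussion. The injured-side hippocampus was taken whole at day 1 or day 14, which gave 2 sham day 1, 4 TBI day 1, 4 sham day 14 and 4 TBI day 14 rats. Each was sequenced as 1 poly(A) RNA library of 15065540 to 23743703 counted reads. Values below are CPM (each gene's share of all counted reads, scaled to a common library size) with TMM scaling factors, listed in replicate order. Fold changes are log2 values from edgeR's quasi-likelihood test, called at a Benjamini-Hochberg adjusted p under 0.05. Their standard error (SE) was derived as the absolute log2 fold change over the square root of the test's F statistic. The counts were per gene, so the start sites of Bdnf and the full-length and truncated forms of TrkB were not separated, and levels were not compared between genes.

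All 9 neuronal markers of a fixed list, among them Rbfox3, were detected in every library. A list of choroid plexus markers, led by Ttr, summed to 11387 CPM in sham day 1 replicate 1, 2117 in TBI day 14 replicate 2 and 8859 in TBI day 14 replicate 3, against 130 to 257 CPM in the other 11 libraries. Of the 17 tested genes of that list, 13 were called lower at day 1 and 1 higher at day 14. Results resting on those 3 libraries are also given without them where a call changed. In whole tissue, fewer cells of a type and less RNA per cell cannot be told apart.

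At day 1, 3 of the 8 tested genes were DEGs against time-point-matched sham. Ntf3 and Ntrk3, a ligand and its receptor, fell, and Fgf2 rose. All 3 calls were lost when sham day 1 replicate 2 was left out. Over all tested genes 11.2% were called higher and 7.93% lower at this day. At day 14, 1 of the 8, Igf1, was a DEG, and it rose. The background at day 14 was 4.07% called higher and 0.365% called lower. The median log2 fold change of the 8 genes was −0.23 at day 1 and 0.074 at day 14, beside −0.015 and −0.031 over all tested genes.

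**Figure D1:**
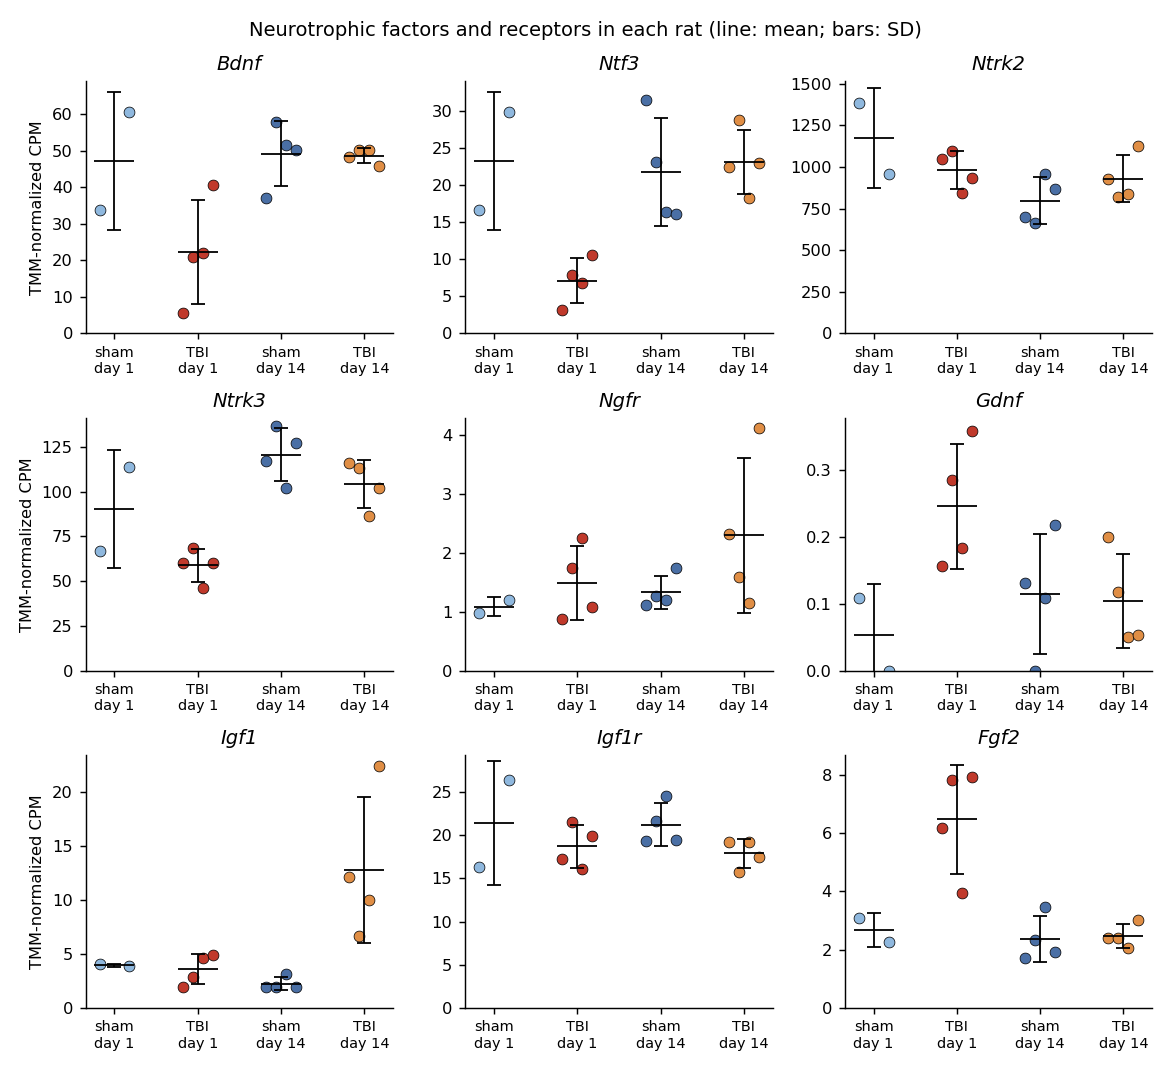
TMM-normalized CPM of the 9 genes (vertical axes, starting at 0 and differing between panels) in each rat of the 4 groups (horizontal axes); points are rats, horizontal lines are means and bars are SD. Ntf3 was lowest in the 4 TBI day 1 rats (3.22 to 10.7 CPM), Fgf2 was highest in them (3.94 to 7.92 CPM), and Igf1 was highest in the 4 TBI day 14 rats (6.62 to 22.3 CPM).

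The sequence before a start site is shown for Bdnf, Ntf3, Fgf2 and Igf1, the 4 secreted factors that were called in at least 1 comparison below. RefSeq promoter windows of the newer rat build GRCr8, each the 250 bases before a start site, matched 6 of the 9 genes with 13 windows; Ntrk2, Ntrk3 and Ngfr had no entry. The windows were searched on both strands for TGACG (the core of the cAMP response element, the site of CREB), TGACTCA (the AP-1 site) and GGGCGG (the GC box, the site of SP1), none of which contains another. Capitals mark a match on either strand. For Bdnf, the window of its 6 that holds a match to TGACG is printed, and for Ntf3 the window of its 3 that lies farthest downstream.

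Bdnf, chr3:116637608-116637857, plus strand: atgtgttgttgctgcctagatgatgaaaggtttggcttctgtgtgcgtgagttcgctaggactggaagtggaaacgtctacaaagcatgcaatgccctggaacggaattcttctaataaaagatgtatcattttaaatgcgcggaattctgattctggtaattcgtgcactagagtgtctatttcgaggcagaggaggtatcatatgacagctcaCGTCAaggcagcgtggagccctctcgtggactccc
Ntf3, chr4:160668908-160669157, minus strand: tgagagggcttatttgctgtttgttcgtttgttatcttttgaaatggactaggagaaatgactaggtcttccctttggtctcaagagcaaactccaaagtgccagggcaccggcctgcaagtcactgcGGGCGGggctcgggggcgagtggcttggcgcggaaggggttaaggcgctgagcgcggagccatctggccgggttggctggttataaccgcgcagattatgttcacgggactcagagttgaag
Fgf2, chr2:122164204-122164453, plus strand: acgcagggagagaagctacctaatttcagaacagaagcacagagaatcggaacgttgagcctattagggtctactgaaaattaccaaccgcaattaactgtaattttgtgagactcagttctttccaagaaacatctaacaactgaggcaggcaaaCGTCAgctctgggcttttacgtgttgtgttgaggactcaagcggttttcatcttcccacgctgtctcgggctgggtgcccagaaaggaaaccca
Igf1, chr7:24172282-24172531, plus strand: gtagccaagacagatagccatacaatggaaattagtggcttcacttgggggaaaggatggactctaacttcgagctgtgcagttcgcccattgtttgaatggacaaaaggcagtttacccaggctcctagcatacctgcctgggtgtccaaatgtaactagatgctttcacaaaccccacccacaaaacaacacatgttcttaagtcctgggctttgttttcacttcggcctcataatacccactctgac

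TGACG, here written as its complement CGTCA, was in 3 of the 13 windows, those of Fgf2 and Gdnf and the Bdnf window that was picked for it, and in 18.2% of all 33469 promoter windows of this length. GGGCGG was in 5 of the 13, among them all 3 windows of Ntf3 (of which 2 start 1 base apart), and in 30.5% of all windows. TGACTCA, present in 4.05% of all windows, was in 0 of the 13, and the Igf1 window held none of the 3 motifs. A match is a description of the letters only, and the reads were counted per gene, so no level below belongs to a single start site.

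Bdnf is the most abundant neurotrophin of the adult brain. It was at 33.9 and 60.5 CPM in the sham day 1 rats, 5.71, 20.8, 22.1 and 40.5 in the TBI day 1 rats, 37.0, 57.9, 51.5 and 50.2 in the sham day 14 rats, and 48.2, 50.3, 50.1 and 45.8 in the TBI day 14 rats. The TBI day 1 rats held the 3 lowest values of all, but replicate 4 lay above sham day 1 replicate 1 and sham day 14 replicate 1, so the groups overlapped. The TBI day 1 rats averaged 22.3 ± 14.3 CPM (SD, n = 4), less than the average of 47.2 ± 18.8 (SD, n = 2) for their sham controls. Against time-point-matched sham the log2 fold change of Bdnf was −1.08 (SE 0.44), which was not called (edgeR adjusted p = 0.0985), with an interval of 2 SE from −1.97 to −0.20. Against sham day 14, the baseline that the study uses for its trajectories, Bdnf was lower in TBI day 1 by a log2 fold change of −1.14 (SE 0.38, edgeR adjusted p = 0.0229). That call was lost without TBI day 1 replicate 2 (adjusted p = 0.0539 in edgeR) and without sham day 14 replicate 2 (adjusted p = 0.0572 in edgeR). At day 14 the TBI and sham rats differed by −0.02 (SE 0.37, edgeR adjusted p = 0.996) and an interval from −0.76 to 0.72. The spread within TBI day 14, 2.11 CPM, was smaller than in the other groups.

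Ntf3 had the largest decrease at day 1 among the 8 tested genes. The level of Ntf3 was 16.7 and 29.9 CPM in sham day 1, 3.22, 7.83, 6.83 and 10.7 in TBI day 1, 31.5, 23.1, 16.3 and 16.1 in sham day 14, and 22.4, 28.8, 18.3 and 23.0 in TBI day 14. The 4 TBI day 1 rats lay below all 10 other rats. Against sham day 1, Ntf3 fell by 1.70 on the log2 scale (SE 0.37, 3.26-fold, edgeR adjusted p = 0.00534). Against sham day 14, which shares the TBI day 1 rats with that comparison, Ntf3 fell by 1.60 (SE 0.32, edgeR adjusted p = 0.000927). From day 1 to day 14 within TBI rats it was higher by 1.69 (SE 0.32, edgeR adjusted p = 0.000857), and at day 14 the difference from sham was 0.09 (SE 0.31, edgeR adjusted p = 0.966). By mean level, sham day 1 came first with 23.3 ± 9.32 CPM (SD, n = 2), followed by TBI day 14 with 23.1 ± 4.32 (SD, n = 4), sham day 14 with 21.8 ± 7.27 (SD, n = 4) and, last, TBI day 1 with 7.13 ± 3.07 (SD, n = 4). The first 3 of these lay within each other's spread. The test of whether the Ntf3 effect itself differed between the days gave −1.79 (SE 0.48, edgeR adjusted p = 0.0531) and was not called.

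Markers of granule cells of the dentate gyrus (Prox1, C1ql2 and Calb1) had their lowest sums in TBI day 1, the group with the lowest mean Bdnf and Ntf3. Their summed level was 29.2, 113, 99.2 and 133 CPM in TBI day 1, against 156 and 377 in sham day 1. At day 14 it lay between 135 and 227 CPM for sham rats and between 175 and 202 CPM for injured rats. Within sham day 14, replicate 1 had the lowest sum, at 135 CPM, and the highest Ntf3, at 31.5 CPM. 2 of these 3 markers were called lower at day 1, and none of the 3 was at 0 in any library. At day 1 the summed level of the 9 neuronal markers lay between 3491 and 6512 CPM for injured rats and between 7737 and 10901 CPM for sham rats, with 4 of the 9 called lower. TBI day 1 replicate 1 had the lowest sum of both lists and the lowest Bdnf and Ntf3 of all 14 rats. The part of these markers in the neurotrophin values was not tested.

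**Figure D2:**
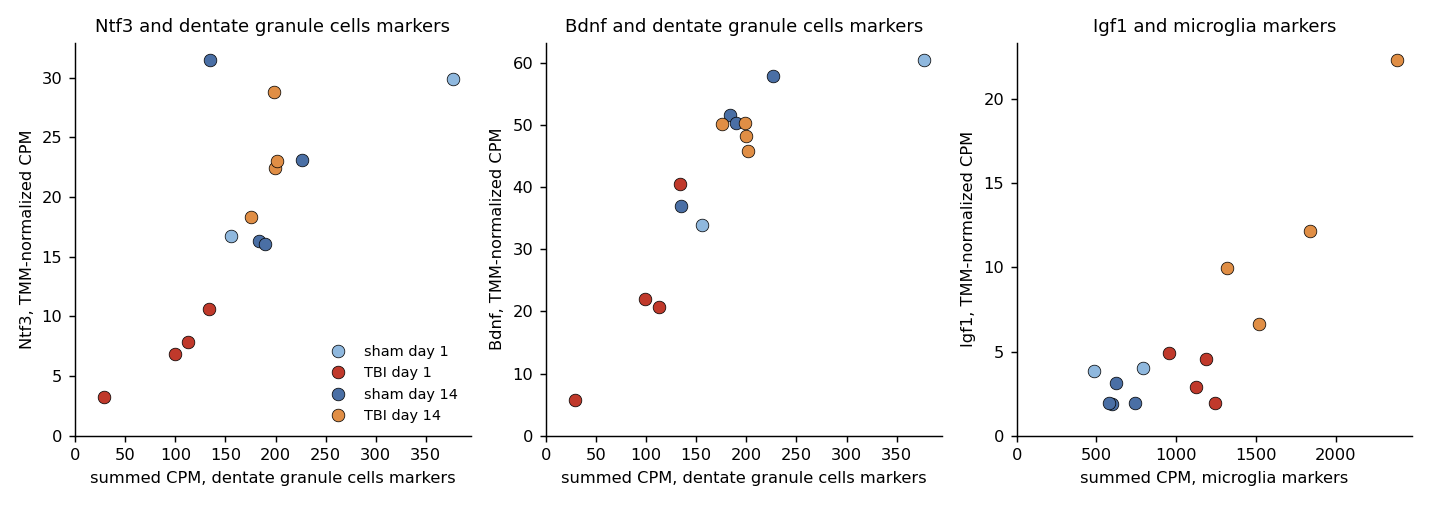
Ntf3 and Bdnf against the summed CPM of 3 dentate granule cell markers, and Igf1 against the summed CPM of 12 microglial markers; each point is 1 rat, colored by group, and all axes are linear and start at 0. The TBI day 1 rats have the 4 lowest Ntf3 values and the 3 lowest Bdnf values, with the fourth Bdnf value at 40.5 CPM among the sham rats, and the TBI day 14 rats, with microglial sums of 1318 to 2386 CPM, lie at the upper right of the Igf1 panel.

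The receptors of the neurotrophins did not move as a group. Ntrk2, which encodes TrkB and is expressed by neurons and, in its truncated form, by astrocytes, was at 1386 and 959 CPM in sham day 1, 1048, 1096, 843 and 934 in TBI day 1, 699, 661, 959 and 865 in sham day 14, and 928, 818, 838 and 1127 in TBI day 14. These ranges overlapped at both days. The log2 fold change of Ntrk2 was −0.26 (SE 0.20, edgeR adjusted p = 0.383) at day 1 and 0.22 (SE 0.16, edgeR adjusted p = 0.696) at day 14, with intervals of −0.66 to 0.14 and −0.11 to 0.55. The sign at day 1 rested on sham day 1 replicate 1, since the value was 0.032 without that rat. Summed astrocyte markers at day 1 lay between 13656 and 20060 CPM for injured rats and between 6672 and 10656 CPM for sham rats, and 1 of the 8 markers, Gfap, was called at each day. Gfap alone was between 6987 and 13057 CPM and between 952 and 1558 CPM in these groups and made the difference between the sums, while the median log2 fold change of the 8 markers at day 1 was −0.31. The part of astrocytes in the Ntrk2 value was not tested.

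Ntrk3, which encodes TrkC, the receptor of neurotrophin-3, was at 67.0 and 114 CPM in sham day 1, 60.1, 68.7, 46.2 and 59.9 in TBI day 1, 117, 136, 102 and 127 in sham day 14, and 116, 113, 86.6 and 102 in TBI day 14. The TBI day 1 rats lay below both day 14 groups, but overlapped sham day 1 replicate 1. At day 1 Ntrk3 fell by 0.62 on the log2 scale (SE 0.20, 1.54-fold, edgeR adjusted p = 0.0441). This call was lost in 7 of 15 other settings, among them limma-voom (adjusted p = 0.0641). Against sham day 14 it fell by 1.04 (SE 0.17, edgeR adjusted p = 0.000213), a call that held in all 15 settings run. Between TBI day 1 and TBI day 14 Ntrk3 rose by 0.83 (SE 0.17, edgeR adjusted p = 0.00158), and at day 14 it differed from sham by −0.21 (SE 0.17, edgeR adjusted p = 0.736).

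Ngfr, which encodes the p75 receptor, had low counts throughout. It was at 0.970 and 1.20 CPM in sham day 1, 0.882, 1.75, 2.25 and 1.07 in TBI day 1, 1.11, 1.26, 1.19 and 1.74 in sham day 14, and 2.32, 1.58, 1.14 and 4.12 in TBI day 14. TBI day 14 replicate 4 had the highest value, and the groups overlapped at both days. The log2 fold change of Ngfr was 0.45 (SE 0.51, edgeR adjusted p = 0.564) at day 1 and 0.78 (SE 0.40, edgeR adjusted p = 0.457) at day 14. The interval was −0.56 to 1.47 at day 1 and −0.03 to 1.59 at day 14, so changes of this size in Ngfr were not resolved at these counts.

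Gdnf, the ligand of the RET and GFRA1 receptor complex, had 2 and 0 counts in sham day 1, 3, 7, 4 and 8 in TBI day 1, 2, 0, 2 and 4 in sham day 14, and 3, 2, 1 and 1 in TBI day 14. The TBI day 1 counts were the highest as a group, but replicate 1, with 3 counts, lay below sham day 14 replicate 4, with 4. A count of 0 allows up to 3 counts at the same depth, so no fold change was taken.

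Igf1, a factor made in the adult brain by microglia as well as neurons, was the only one of the 8 genes called at day 14. Its level was 4.04 and 3.83 CPM in sham day 1, 1.92, 2.88, 4.58 and 4.92 in TBI day 1, 1.90, 1.92, 3.14 and 1.96 in sham day 14, and 12.1, 6.62, 9.99 and 22.3 in TBI day 14. The 4 TBI day 14 rats lay above all 10 other rats, and the mean was 12.8 ± 6.77 CPM (SD, n = 4) against 2.23 ± 0.61 (SD, n = 4) in sham day 14. Igf1 rose by a log2 fold change of 2.51 (SE 0.38, 5.70-fold, edgeR adjusted p = 0.000691). The call held in all 17 other settings, with values from 2.1 to 2.97. At day 1 Igf1 differed from sham by −0.13 (SE 0.44, edgeR adjusted p = 0.857). The effects at the days differed from each other by −2.65 (day 1 minus day 14, SE 0.56, edgeR adjusted p = 0.0192), and Igf1 was the 1 gene of the 8 for which this test was called. Over all tested genes the effect was called larger at day 1 for 2.24% and smaller for 1.44%. With limma-voom the difference missed the threshold (adjusted p = 0.0538).

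The microglial list, 12 genes led in level by Csf1r, had 11 of 12 genes called higher at day 14 and 5 higher and 2 lower at day 1. Its summed level at day 14 lay between 1318 and 2386 CPM for injured rats and between 577 and 740 CPM for sham rats. At day 1 it lay between 955 and 1242 CPM for injured rats and between 483 and 790 CPM for sham rats. TBI day 14 replicate 4 had both the highest microglial sum and the highest Igf1. Microglial sums in the TBI day 1 rats were above all sham sums, while Igf1 in those rats was 1.92 to 4.92 CPM and overlapped sham. A list of blood-derived and perivascular macrophage genes went the other way in time, with a sum between 243 and 467 CPM at day 1 and between 50.6 and 164 CPM at day 14 for injured rats, and between 28.3 and 55.3 CPM for the 6 sham rats, and 6 of its 7 genes were called higher at day 1 and 1 at day 14. In the lists for other cell types the calls were 2 of 6 oligodendrocyte genes lower and 1 of 5 endothelial genes higher, both at day 1, and those for oligodendrocyte precursors and for fibroblasts and pericytes held none by edgeR. The part of any cell type in the Igf1 values was not tested.

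Igf1r, the receptor tyrosine kinase for IGF-1, was at 16.3 and 26.5 CPM in sham day 1, 17.3, 21.6, 16.1 and 19.9 in TBI day 1, 19.3, 21.6, 24.6 and 19.4 in sham day 14, and 19.2, 15.7, 19.2 and 17.5 in TBI day 14. The TBI day 14 rats lay just below the sham day 14 rats, with 19.2 against 19.3 CPM at the nearest point. The log2 fold change of Igf1r was −0.25 (SE 0.16, edgeR adjusted p = 0.619) at day 14 and −0.19 (SE 0.19, edgeR adjusted p = 0.515) at day 1, with intervals of −0.57 to 0.07 and −0.58 to 0.19. Neither was called.

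Fgf2, a heparan sulfate binding growth factor made by astrocytes and some neurons, was at 3.07 and 2.26 CPM in sham day 1, 6.17, 7.83, 3.94 and 7.92 in TBI day 1, 1.70, 2.34, 3.46 and 1.91 in sham day 14, and 2.39, 2.4, 2.04 and 3.01 in TBI day 14. The 4 TBI day 1 rats lay above all 10 other rats. Fgf2 rose at day 1 by a log2 fold change of 1.28 (SE 0.35, 2.43-fold, edgeR adjusted p = 0.0206), and against sham day 14 it was higher by 1.45 (SE 0.28, edgeR adjusted p = 0.000727). From TBI day 1 to TBI day 14 Fgf2 fell by 1.39 (SE 0.28, edgeR adjusted p = 0.0013), and at day 14 the difference from sham was 0.06 (SE 0.29, edgeR adjusted p = 0.977). The day 14 interval ran from −0.51 to 0.63. The difference between the effects at the days, 1.22 (SE 0.45), was not called (edgeR adjusted p = 0.147).

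**Figure D3:**
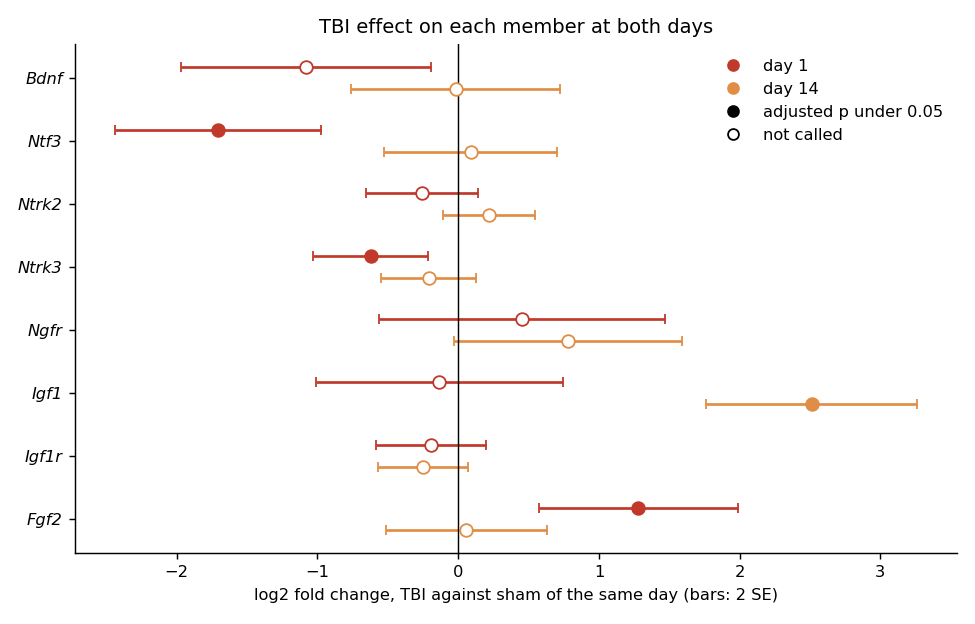
Log2 fold change of TBI against sham of the same day (horizontal axis) for the 8 tested genes, at day 1 and day 14; bars span 2 SE on each side and filled points had an edgeR adjusted p under 0.05. Ntf3 and Ntrk3 lie below 0 and Fgf2 above 0 at day 1, and Igf1 alone is filled at day 14, at 2.51.

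The 2 sham day 1 rats set how firm the day 1 calls were. Without sham day 1 replicate 2, which had the higher Bdnf, Ntf3 and Ntrk3, the sham day 1 baseline was replicate 1 alone. That library had the choroid plexus sum of 11387 CPM. Ntf3 was then at −1.22, Ntrk3 at −0.19 and Fgf2 at 1.07. The day 1 calls were lost in that fit, and calls over all tested genes were fewer as well. With the 6 day 1 rats alone 0 were called as well, and the edgeR adjusted p was 0.0522 for Ntf3, 0.115 for Fgf2 and 0.23 for Ntrk3, with 551 of all tested genes called higher and 97 lower. Leaving out the 3 libraries high in choroid plexus markers made sham day 1 replicate 2 the only sham day 1 rat. Against it alone, Ntf3 was at −2.08, Ntrk3 at −0.97 and Fgf2 at 1.5 at day 1. Igf1 at day 14 was at 2.97 in that fit (edgeR adjusted p = 0.000404). With all 6 sham rats as 1 control group, Bdnf was also called, at −1.12 (edgeR adjusted p = 0.021). Against sham day 14, which has 4 rats, the edgeR calls for Ntf3, Ntrk3 and Fgf2 held in all 15 settings run. That comparison also differs in the days since surgery. Sham day 1 differed from sham day 14 by 0.10 for Ntf3, −0.42 for Ntrk3 and 0.17 for Fgf2, none called by edgeR.

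**Figure D4:**
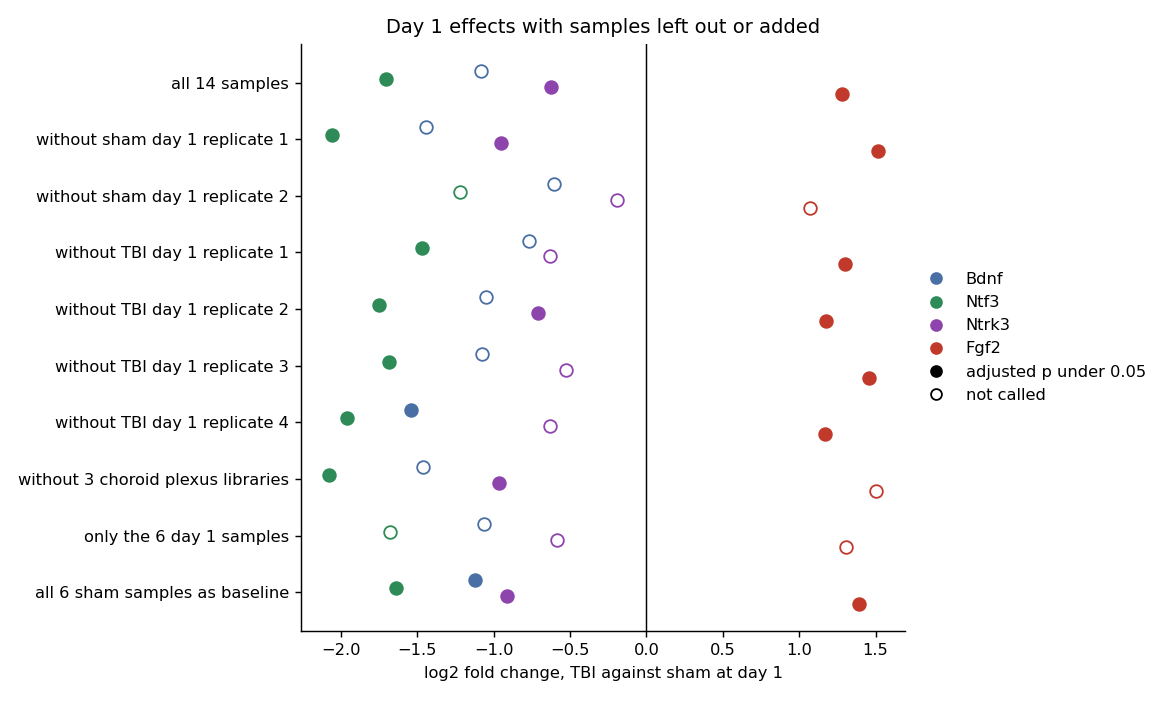
Log2 fold change at day 1 (horizontal axis) of Bdnf, Ntf3, Ntrk3 and Fgf2 with samples left out or sham rats pooled (rows); filled points had an edgeR adjusted p under 0.05. Every point of Ntf3, Bdnf and Ntrk3 is below 0 and every point of Fgf2 above 0, and no point is filled without sham day 1 replicate 2 or with the 6 day 1 rats alone.

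Across the trajectory comparisons, which share the TBI day 1 rats, 4 of the 8 genes were called in TBI day 1 against sham day 14 (Fgf2 higher, Bdnf, Ntf3 and Ntrk3 lower), where 25% of all tested genes were called higher and 21% lower. In TBI day 14 against TBI day 1, 5 of the 8 were called, with Bdnf, Ntf3, Ntrk3 and Igf1 higher and Fgf2 lower, where the background was 17.6% higher and 21.9% lower. For Bdnf the latter change was 1.12 (SE 0.38, edgeR adjusted p = 0.0284) and for Igf1 it was 1.83 (SE 0.36, edgeR adjusted p = 0.00112). The Bdnf call was lost in 5 of 15 other settings.

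Sham surgery alone was compared across days. Between sham day 1 and sham day 14, 0 of the 8 genes were called by edgeR, 1 had an unadjusted p under 0.05 (Ntrk2), DESeq2 called 1 (Ntrk2) and limma-voom 0. Over all tested genes 11.3% were called higher in sham day 1 and 7.88% lower. Ntrk2 was higher in sham day 1 by 0.56 (SE 0.20, edgeR adjusted p = 0.0595) and Igf1 by 0.81 (SE 0.44, edgeR adjusted p = 0.207), and Ntrk3 differed by −0.42 (SE 0.21, edgeR adjusted p = 0.174). For Igf1 both sham day 1 rats lay above all 4 sham day 14 rats.

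The genes most like each member over the 14 libraries were found by Pearson's r of log2 CPM, as a description only, since all genes share the libraries and the differences between groups. Bdnf was most like Elmod1 (r = 0.99), Lppr4 (r = 0.987) and Kcnj3 (r = 0.982). Ntf3 was most like Tle1 (r = 0.973), Rsph10b (r = 0.962) and Aldh1a1 (r = 0.955), and Ntrk3 most like Il1rap (r = 0.975), Cdon (r = 0.973) and Grik2 (r = 0.963). Igf1 was most like Dctd (r = 0.947), and Cd84 (r = 0.908), a surface receptor of leukocytes, was also among its nearest genes. Fgf2 was most like the metallothionein Mt1a (r = 0.938), Yes1 (r = 0.93) and Ubxn4 (r = 0.927). The nearest genes were Bmpr1b (r = 0.927) for Ntrk2, Cul5 (r = 0.938) for Igf1r and Mx1 (r = 0.884) for Ngfr.

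The partners of these factors were counted over 8 lists of 89 genes, of which 83 were tested. At day 1, 12 of the 83 rose and 14 fell, with a median log2 fold change of −0.18, beside the 11.2% called higher and 7.93% called lower over all tested genes. At day 14, 2 of the 83 rose, the heparan sulfate proteoglycans Sdc1 and Sdc4, where 4.07% of all tested genes were called higher. Of the genes called at day 1, Furin, Gfra1, Gfra2, Nradd, Irs1, Fgf9, Fgfr2 and Etv5 were not called against sham day 14. Their edgeR adjusted p there ran from 0.0855 (Fgfr2) to 0.984 (Gfra1), so their day 1 calls rested on the 2 sham day 1 rats. The other called partner genes named below were called there too, in the same direction. Nothing particular to a list is read from its count below. Fewer partner genes were called at day 1 when sham day 1 replicate 2 was left out, and so were fewer of all tested genes.

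Of 6 other neurotrophin ligands and receptors tested, 2 fell at day 1, where 7.93% of all tested genes were called lower. They included Sort1, the sortilin that binds proneurotrophins together with p75, at 1000 and 1269 CPM in sham day 1 and 485, 718, 748 and 870 in TBI day 1, below both sham rats. Sort1 fell by 0.69 on the log2 scale (SE 0.20, edgeR adjusted p = 0.0247). Ntf4, the ligand that shares TrkB with BDNF, had 0 to 11 counts per library and was not tested.

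Of 7 partners of p75, 1 rose and 2 fell at day 1, beside 11.2% and 7.93% over all tested genes. Rtn4r and Lingo1, which form the Nogo receptor complex with p75, fell by 0.95 each (SE 0.19 and 0.21, edgeR adjusted p = 0.00286 and 0.00705). Nradd, a p75-related death domain protein, rose by 1.15 (SE 0.36, edgeR adjusted p = 0.0375), with only 20 and 11 counts in the sham day 1 rats. Against sham day 14 Nradd was at 0.34 (SE 0.27, edgeR adjusted p = 0.325) and was not called. Of 8 enzymes that cleave proneurotrophins, 3 rose and 2 fell against the same background. Mmp9, a protease that cleaves proneurotrophins outside the cell, was at 3.07 and 4.38 CPM in sham day 1 and 17.1, 22.4, 14.1 and 17.7 in TBI day 1, and rose by 2.25 (SE 0.35, edgeR adjusted p = 0.000498). Plg, the precursor of plasmin, was at 0.377 and 0.461 CPM in sham day 1 and 5.08, 3.29, 0.504 and 1.12 in TBI day 1. Plg rose by 2.55 (SE 0.78, edgeR adjusted p = 0.0341) at low counts. TBI day 1 replicate 3 lay near the sham day 1 rats and below sham day 14 replicate 4, at 0.871 CPM. The convertases went both ways. Pcsk1 and Pcsk5 fell by 1.57 (SE 0.40, edgeR adjusted p = 0.0146) and 0.83 (SE 0.19, edgeR adjusted p = 0.00654), while Furin rose by 0.61 (SE 0.15, edgeR adjusted p = 0.0116). Among 13 receptor adaptors, where the 2 calls are a smaller share than over all tested genes, Shc1 rose by 1.06 (SE 0.19, edgeR adjusted p = 0.00167) and Kidins220, a scaffold of Trk receptors, fell by 0.62 (SE 0.19, edgeR adjusted p = 0.0362).

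Receptors of GDNF were called at day 1, although the ligand could not be tested. Ret, the signaling receptor of the GDNF family, was at 13.3 and 13.7 CPM in sham day 1, 75.8, 137, 67.4 and 61.9 in TBI day 1. At day 14 it lay between 11.1 and 15.7 CPM for sham rats and between 14.1 and 25.6 CPM for injured rats. All 4 TBI day 1 rats lay above the other 10. Ret rose at day 1 by 2.66 (SE 0.34, 6.32-fold, edgeR adjusted p = 0.000108), and the call held in all 15 settings run. Gfra1, the co-receptor that binds GDNF, rose at day 1 by 0.67 (SE 0.20, edgeR adjusted p = 0.0289). Gfra2, the co-receptor for neurturin, fell by 0.93 (SE 0.27, edgeR adjusted p = 0.0255). Against sham day 14 neither was called, with Gfra1 at −0.005 (SE 0.16, edgeR adjusted p = 0.984) and Gfra2 at −0.39 (SE 0.23, edgeR adjusted p = 0.174). Ncam1, an alternative receptor for GDNF, fell at day 1 by 0.61 (SE 0.17, edgeR adjusted p = 0.0211). These 4 were the day 1 calls among 8 genes of this list, 2 in each direction, beside 11.2% called higher and 7.93% lower over all tested genes.

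Of 15 other genes of the IGF system, 1 was called at day 1, lower, a smaller share than the 7.93% of all tested genes. Irs1, the docking protein of the insulin and IGF-1 receptors, fell by 0.90 (SE 0.27, edgeR adjusted p = 0.0292). Igf2, a ligand of Igf1r, was at 857 and 31.9 CPM in sham day 1, between 31.5 and 201 among TBI day 1 rats, between 29.6 and 96.5 among sham day 14 rats, and at 54.4, 131, 752 and 53.8 in TBI day 14. The highest values were in sham day 1 replicate 1 and TBI day 14 replicate 3, the libraries with the highest choroid plexus sums. The log2 fold change of Igf2 was −2.47 (SE 1.11, edgeR adjusted p = 0.129) at day 1 and 2.21 (SE 0.98, edgeR adjusted p = 0.339) at day 14. Without the 3 libraries high in choroid plexus markers, sham day 1 replicate 2 was the only sham day 1 rat. Igf2 was then at 1.31 at day 1 and at 0.033 at day 14, the latter not called by edgeR.

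Of 15 other genes of the FGF system, 4 rose and 2 fell at day 1, beside 11.2% and 7.93% over all tested genes. Sdc1, a heparan sulfate proteoglycan that can present FGF-2 to its receptors, was at 1.62 and 0.461 CPM in sham day 1 and 32.1, 53.7, 39.5 and 30.5 in TBI day 1, and rose by 5.25 (SE 0.46, 38.1-fold, edgeR adjusted p = 6.63e-06). At day 14 Sdc1 was still higher than sham by 1.63 (SE 0.37, edgeR adjusted p = 0.0169). Sdc4, its relative, rose by 1.11 (SE 0.18, edgeR adjusted p = 0.00065) at day 1 and by 0.64 (SE 0.14, edgeR adjusted p = 0.0109) at day 14. Fgfrl1, a receptor without a kinase domain, rose at day 1 by 1.54 (SE 0.21, edgeR adjusted p = 0.000192) and Fgf9 fell by 1.00 (SE 0.31, edgeR adjusted p = 0.0337). Of the signaling receptors, Fgfr3 rose by 0.57 (SE 0.19, edgeR adjusted p = 0.0469) and Fgfr2 fell by 0.47 (SE 0.15, edgeR adjusted p = 0.0462), while Fgfr1 was at −0.15 (SE 0.18, edgeR adjusted p = 0.583). Among 11 feedback genes of the ERK pathway, 1 rose and 2 fell against the same background. Spry1 rose by 1.48 (SE 0.27, edgeR adjusted p = 0.00199), and Dusp4 and Etv5 fell by 1.68 (SE 0.38, edgeR adjusted p = 0.00685) and 0.86 (SE 0.19, edgeR adjusted p = 0.0063).

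**Figure D5:**
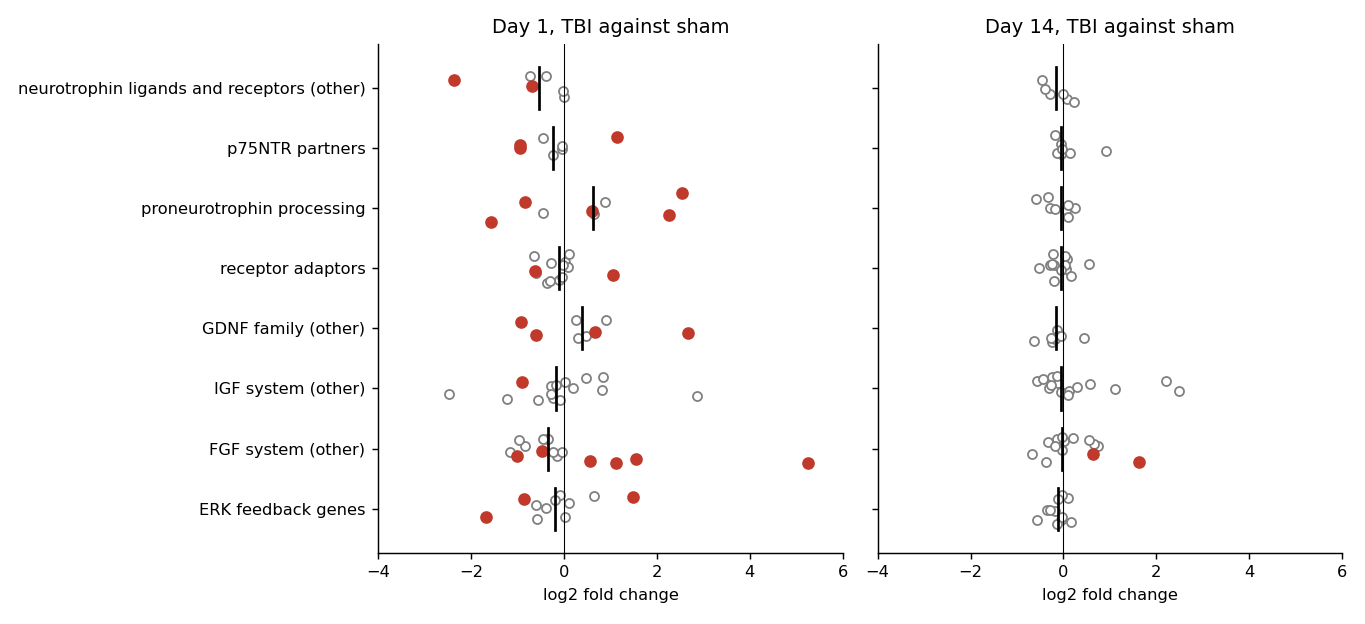
Log2 fold change of TBI against sham (horizontal axes) for the 83 tested partner genes by list (rows), at day 1 and day 14; points are genes, filled red points had an edgeR adjusted p under 0.05 and black bars are list medians. At day 1 calls lie on both sides of 0 in most lists, with Sdc1 at 5.25 as the highest, and at day 14 Sdc1 and Sdc4 are the 2 filled points.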

How the data were processed

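Poly(A) RNA of the injured-side hippocampus of 14 rats was analysed here. The authors aligned stranded single-end reads to rn5 with STAR 2.4.2a and assigned them to UCSC gene models in featureCounts 1.5.0, and the deposited counts are whole reads per gene without normalization. The strand setting of the counting and the RNA extraction batches are not given in the sources used here. The 2 H3K4me3 groups were not used here, since no annotation of rn5 was given.

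The test was the quasi-likelihood F-test of edgeR 4.0.16 under R 4.3.3. Library sizes were scaled by TMM, genes with few counts were removed by edgeR's own filter (12875 of 17172 stayed), and each of the 4 groups had its own mean in a single model of the 14 libraries. P-values are two-sided and Benjamini-Hochberg adjusted over all tested genes, with a threshold of 0.05. They measure the spread between rats, since the spread within groups was far above Poisson counting error (chi-squared per degree of freedom of 12.9 to 168 between pairs of replicates). CPM used the TMM factors, and log2 CPM a prior count of 2. A count of 0 was taken to allow 3 counts, for counting error only. With 2 sham day 1 rats, fits that leave 1 of them out assume that the other varies like the rest.

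The members and lists were chosen with earlier results of these data known. Partner genes named are up to 4 called genes per list by size of the log2 fold change at either day. Partner ligands and receptors of the members such as Ntf4, Gfra1, Ret, Igf2 and Fgfr1 to Fgfr3 were added. Furin is named as well, as the remaining called gene of its list. Some genes that these rules cover are not reported here. Likeness is the 3 tested genes with the highest r. Alternatives were limma-voom (limma 3.58.1), DESeq2 1.42.0, median-of-ratios factors, other filters, a threshold of 0.01, a replicate block, fits restricted to the compared groups, pooled sham rats and each sample left out. Leaving out the 3 libraries with choroid plexus sums above 1000 CPM was added after seeing the data. Promoter windows were read in Python 3.11.15 from RefSeq, and figures drawn with matplotlib 3.10.9.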

Additional observations from a re-analysis of the deposited data

Results flagged for a closer look

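The effect of TBI differed between the days, by an edgeR test of the difference itself (day 1 minus day 14), for Igf1 (−2.65, edgeR adjusted p = 0.0192) among the factors. Among partner genes it differed for Mmp9 (2.84, edgeR adjusted p = 0.00335), Ret (2.23, edgeR adjusted p = 0.0081), Sdc1 (3.62, edgeR adjusted p = 0.00437), Fgfrl1 (0.98, edgeR adjusted p = 0.0494) and Spry1 (1.51, edgeR adjusted p = 0.0282).

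In 6 of the 102 groups of 4 rats tested for a sample far from the others, 1 rat stood apart, and chance gives about 1 in 20. Igf1 was high in sham day 14 replicate 3, at 1.70 on the log2 CPM scale. Lingo1 was low in sham day 14 replicate 1 (8.18 log2 CPM) and Mmp9 low in sham day 14 replicate 3 (1.83 log2 CPM). Sdc4 was low in sham day 14 replicate 2 (5.60 log2 CPM), Pcsk5 high in TBI day 14 replicate 1 (5.26 log2 CPM) and Fgfr1 low in TBI day 1 replicate 1 (7.13 log2 CPM).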

How the results depend on the processing

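The Igf1 rise at day 14 kept its direction and side of the threshold in every setting run. So did the calls of Ntf3, Ntrk3 and Fgf2 against sham day 14, a comparison that also differs in days since surgery. The day 1 calls against time-point-matched sham did not. Of the 8 factors, 3 were called at day 1, against 1 (Ntf3) at an adjusted p under 0.01, 0 with only the 6 day 1 rats, and 0 to 3 with 1 rat left out, the 0 without sham day 1 replicate 2. TBI effects that differed between days numbered 1 (Igf1), against 0 with limma-voom and 0 at an adjusted p under 0.01. DESeq2 or no filter on low counts gave 2 (Ntf3 joins). Leaving out 1 rat outside sham day 1 gave 1 to 2, 2 without TBI day 1 replicate 1 or 4, or sham day 14 replicate 1. Over all tested genes this test called 288 higher and 186 lower, against 178 and 100 with limma-voom and 600 and 453 with DESeq2. It called 261 and 185 with no filter and 89 and 29 at an adjusted p under 0.01. Sham day 1 against sham day 14 gave 0 calls, against 1 with DESeq2 and 1 without sham day 14 replicate 3. Calls over all tested genes there were 1450 higher and 1014 lower, against 1721 and 1437 with DESeq2. They were 1492 and 1207 without sham day 14 replicate 3. Partner genes called at day 1 numbered 26, against 13 at an adjusted p under 0.01, 8 with only the groups compared, and 10 to 31 with 1 rat left out. At day 14 the called partner genes numbered 2, against 1 with limma-voom, 6 with DESeq2 and 0 at an adjusted p under 0.01. With only the groups compared there were 7, and with all 6 sham rats 4. Leaving out 1 rat gave 0 to 3, 0 without sham day 14 replicate 2 and 1 without TBI day 14 replicate 4. Over all tested genes the day 14 calls were 524 higher and 47 lower, against 439 and 40 with limma-voom and 674 and 119 with DESeq2. They were 348 and 18 at an adjusted p under 0.01, 912 and 204 with only the groups compared, and 534 and 38 with all 6 sham rats.

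Some log2 fold changes that were not called changed sign, most of them small, with Igf2 at day 1 the exception. For Bdnf at day 14 it was 0.033 with the replicate block, 0.015 with only the groups compared, 0.0015 with all 6 sham rats, and −0.13 to 0.070 with 1 rat left out. With all 6 sham rats, Ntrk2 and Igf1 at day 1 were at 0.089 and 0.35 and Fgf2 at day 14 at −0.0012. Without the 3 choroid plexus libraries, with 1 sham day 1 rat left, Ntrk2, Igf2 and Fgfr1 at day 1 were 0.021, 1.31 and 0.033. With 1 rat left out, day 1 values ran from −0.50 to 0.032 for Ntrk2, −0.33 to 0.068 for Igf1, −0.50 to 0.20 for Igf1r, −3.47 to 1.33 for Igf2 and −0.33 to 0.047 for Fgfr1, and day 14 values from −0.064 to 0.31 for Fgf2 and −0.034 to 0.32 for Ntf3. The cause was not tested.

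With the replicate numbers as a block, the day 1 test picked out 4 factors (Bdnf joins) and 29 partner genes. Over all tested genes it called 1468 higher and 1178 lower, against 1437 and 1021 in the main fit. The day 14 test picked out 1 factor and 2 partner genes. Its calls over all tested genes were 475 and 46, against 524 and 47. Between the sham days 2 factors (Igf1 and Ntrk3) passed, beside 1510 higher and 1273 lower over all tested genes, against 1450 and 1014. Same-numbered rats of different groups had correlated deviations of −0.17 to 0.24, and 4 of 8 day 14 samples were most like their own number. With so few samples this cannot tell whether a shared number stands for a shared batch, and the main test used no pairing. Counts of 0 to 8 for Gdnf set the depth limit.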
